A study of Homo sapiens and Mus musculus with 10 samples.

Results

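The PAX genes are the human family of paired box transcription factors, and accessible chromatin was described at all of their members. They were taken by name from GENCODE release 44, which annotates 9 PAX genes among 19970 protein-coding genes on the autosomes and the X chromosome. Their transcripts begin at 26 start-site clusters of 55121, where starts no more than 2 kb apart were joined. For each gene, the peaks within 1 kb of a start site, inside the gene body and within 100 kb outside it were counted.

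Bulk ATAC-seq maps open chromatin by the sites where the Tn5 transposase can insert adapters. The 8 human libraries came from 4 established lines in ordinary serum-containing medium with no treatment named, with 2 replicates each. GM12878 is a B-lymphoblastoid line transformed with Epstein-Barr virus, HEK293T is an embryonic kidney line that carries the large T antigen, HFF1 is a foreskin fibroblast line and K562 is an erythroleukaemia line. The remaining 2 of the 10 libraries are mouse and were not used. Each tissue is represented by 1 line, so line and tissue cannot be told apart, and the labels do not say whether replicates were separate cultures. No RNA was measured, and a peak at a start site says nothing here about transcription.

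PAX proteins bind DNA through the paired domain, and some of them also carry a homeodomain. They act in embryonic organ formation, where close relatives share tissues: PAX1 and PAX9 in the vertebral column and pharyngeal pouches, PAX2, PAX5 and PAX8 in kidney, ear, thyroid and B cells, PAX3 and PAX7 in neural crest and muscle precursors, and PAX4 and PAX6 in pancreas and eye. PAX5 maintains B-cell identity, and most family members are silent in most adult cell types. Start sites rich in CG dinucleotides are open in many tissues, except where repressive chromatin covers developmental genes.

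The sequences that follow are 50 bp on either side of the summit of 1 library, for the start-site regions called in a single line and for both PAX5 start regions that were called. At the PAX5 main start and at PAX6, where summits differed between libraries, the window is centred instead on the stretch under a peak of every called library. Summits also differed between replicates at the downstream PAX2 region, where the window keeps the summit of HEK293T replicate 1. That summit lay 192 bp outside the start cluster, and the summit of replicate 2 lay within it. The set was chosen to show what kind of DNA opened. The PAX7 window lies in an untranslated region and is not shown. A call means a peak in both replicates of a line. The letters were read from GRCh38, run from 5′ to 3′ on the strand of the gene, and carry CG dinucleotides in capitals.
PAX1 main start, HEK293T alone, coding exon, chr20:21705835-21705935, plus strand: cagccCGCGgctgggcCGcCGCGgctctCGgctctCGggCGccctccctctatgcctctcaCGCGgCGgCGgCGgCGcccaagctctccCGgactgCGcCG
PAX2 main start, HEK293T alone, intron of a longer transcript, upstream summit, chr10:100745073-100745173, plus strand: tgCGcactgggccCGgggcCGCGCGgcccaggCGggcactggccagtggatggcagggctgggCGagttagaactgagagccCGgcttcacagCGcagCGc
PAX2 main start, HEK293T alone, intron of a longer transcript, downstream summit, chr10:100745340-100745440, plus strand: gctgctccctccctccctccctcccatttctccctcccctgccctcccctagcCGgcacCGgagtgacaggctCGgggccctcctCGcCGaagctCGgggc
PAX3 internal start, GM12878 alone, intron, chr2:222242660-222242760, minus strand: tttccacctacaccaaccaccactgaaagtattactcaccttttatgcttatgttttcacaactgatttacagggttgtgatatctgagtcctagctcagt
PAX6 upstream start, K562 alone, intron, chr11:31816854-31816954, minus strand: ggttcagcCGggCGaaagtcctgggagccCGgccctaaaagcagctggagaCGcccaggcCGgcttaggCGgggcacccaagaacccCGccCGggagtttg
PAX8 internal start, K562 alone, coding exon, chr2:113220120-113220220, minus strand: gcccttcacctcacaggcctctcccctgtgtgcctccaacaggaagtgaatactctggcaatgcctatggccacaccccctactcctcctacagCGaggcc
PAX5 main start, GM12878 and HFF1, outside the gene, chr9:37034362-37034462, minus strand: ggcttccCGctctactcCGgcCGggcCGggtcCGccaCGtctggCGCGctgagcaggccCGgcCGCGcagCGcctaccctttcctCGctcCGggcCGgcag
PAX5 region beside the second start, all 8 libraries, intron, chr9:37027770-37027870, minus strand: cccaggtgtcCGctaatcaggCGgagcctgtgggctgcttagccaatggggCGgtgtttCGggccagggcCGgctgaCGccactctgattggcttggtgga
The PAX1 summit window held 17 CG dinucleotides and the window at the PAX5 main start held 15. The PAX6 window held 8, the PAX8 window 1 and the PAX3 window 0, so not all start regions of a single line were CG-rich.

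Library depth differed between lines and touches each count below. The lists held 101704 and 103715 peaks in GM12878, 52438 and 52137 in HEK293T, 127359 and 120344 in HFF1, and 78601 and 71241 in K562. The library background level, which is proportional to depth and was recovered from the lists in reads per peak-calling window, was 0.465 and 0.466 in HEK293T and between 1.712 and 2.433 in the other libraries. Peak height is given as the pileup, the number of reads recovered at the summit, divided by this level. Its median over all peaks was 34.4 and 34.3 in HEK293T, 20.4 and 20.2 in GM12878, and 13.6 to 15.3 in HFF1 and K562. Heights are therefore read against these medians. The fold is the deposited ratio of a summit to the background around it. Marker start sites were called most often in the line of their label for 3 lines: 5 of 5 B-lymphoblastoid markers were called in GM12878, 5 of 5 fibroblast markers in HFF1 and 4 of 5 erythroleukaemia markers in K562. In the lines that should lack them, 0 erythroleukaemia markers were called, but B-lymphoblastoid markers were called in HFF1 (3), HEK293T (2) and K562 (2), and fibroblast markers in GM12878 (3), HEK293T (1) and K562 (1). Of 5 embryonic kidney markers, 4 were called in HEK293T, 4 in HFF1, 3 in GM12878 and 2 in K562.

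Main start sites of the family opened most often in HEK293T. A main start is the start of the MANE Select transcript, and it is called when each replicate has a peak within 1 kb of that position. A start-site cluster is called when each replicate has a peak within 1 kb of the stretch between its outermost starts. Of 9 PAX main starts, 6 were called in HEK293T, 4 in HFF1, 3 in GM12878 and 2 in K562. Over all 19016 main starts, the called shares were 63.6%, 72.3%, 66.9% and 65.3% in the same order. The starts of PAX1, PAX2 and PAX7 were called in HEK293T with no peak in any library of another line. That pattern was found at 0.484% of all main starts. No PAX main start (0 of 9) was open in GM12878, HFF1 or K562 alone, against 1.81%, 2.75% and 1.23% of all main starts. Both PAX6 and PAX9 were called in all 4 lines, against 54.7% of all main starts. PAX4 and PAX8 had no peak at the main start in any library, against 18% of all main starts.

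Counting alternative starts changed the order of the lines. Of the 26 clusters, 7 were called in HEK293T, 7 in K562, 6 in GM12878 and 6 in HFF1, against 28.4%, 31.7%, 34.2% and 37.3% of all clusters. At least 1 cluster was called for 7 of 9 genes in HEK293T, 5 in GM12878, 5 in HFF1 and 4 in K562, against 67.7%, 71.8%, 76.1% and 70.3% of all genes. Of the clusters called in 1 line with no peak elsewhere, 3 belonged to HEK293T, 2 to K562, 1 to GM12878 and 0 to HFF1, against 0.352%, 1.5%, 3.03% and 4.4% of all clusters. A total of 11 clusters had no peak in any library, against 50% of all clusters, and 2 were called in all 4 lines, against 23.3%. When the summit itself had to lie inside the window, the second PAX5 cluster and the upstream PAX6 cluster were lost, which left 6 clusters in HEK293T, 6 in HFF1, 5 in GM12878 and 5 in K562.

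**Figure D1:**
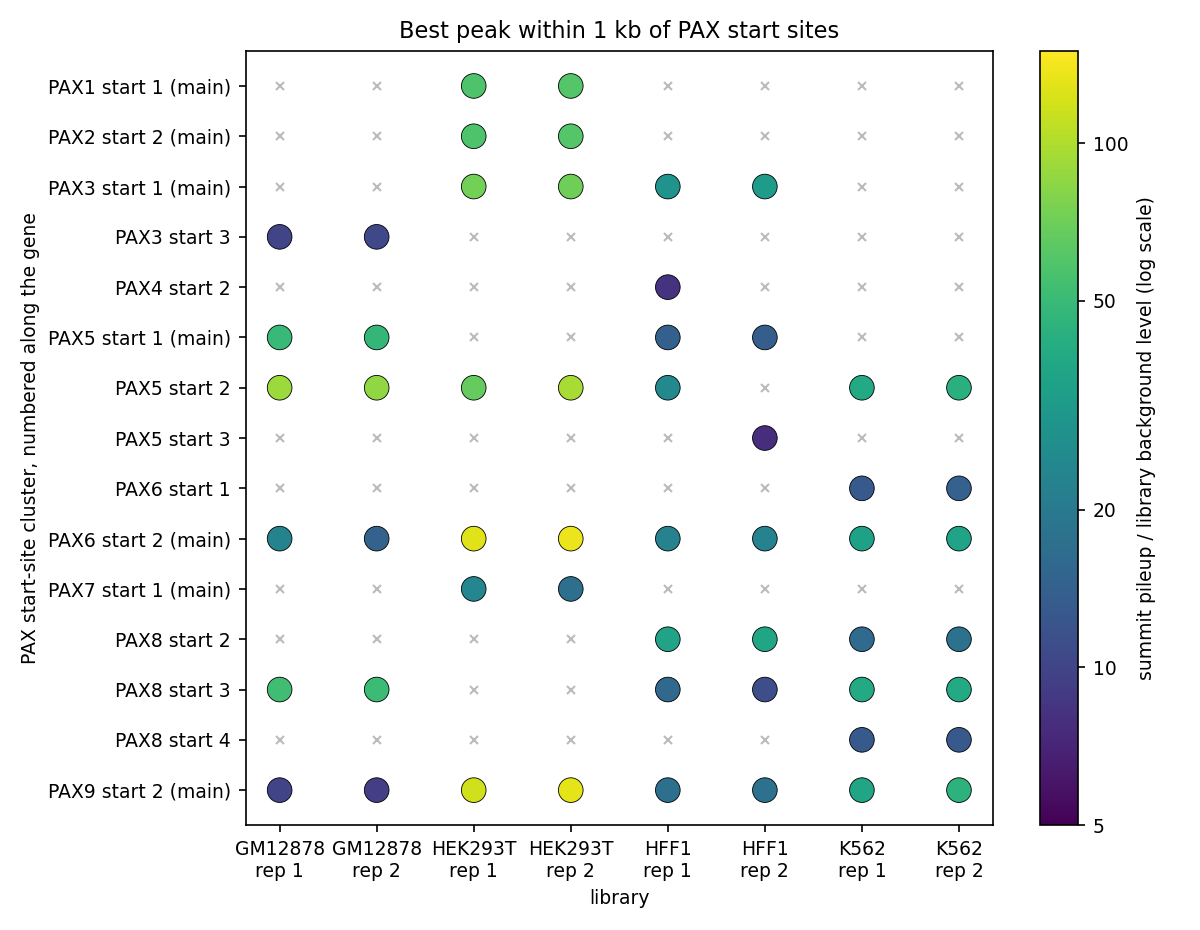
Height of the best peak within 1 kb of each PAX start-site cluster that had a peak (summit pileup over library background level, log colour scale) in the 8 libraries, with crosses where there was no peak. PAX1, PAX2 and PAX7 carry points in both HEK293T libraries only, while PAX6 and PAX9 carry points in all 8.

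The PAX main starts that opened in any line were the CpG-rich ones, but CpG content did not tell in which lines they opened. Counted in 1000 bp, 7 of the 9 PAX main starts were CpG-rich, meaning at least 50% GC and an observed over expected CpG ratio of at least 0.6. Of these 7, 6 were called in HEK293T (85.7%), 4 in HFF1 (57.1%), 3 in GM12878 (42.9%) and 2 in K562 (28.6%). Over all 12517 CpG-rich main starts the called shares were 85.7% in HEK293T, 92.6% in HFF1, 85.3% in GM12878 and 84.6% in K562, so the PAX share matched this background in HEK293T and lay below it in the other lines. The main starts without a peak, PAX4 and PAX8, had ratios of 0.0616 and 0.383. Among the other 6499 main starts, 46.7% had no peak in any library. The ratio was 0.884 at PAX5, the highest of the family, and 0.817 at PAX7, while PAX9, open in every library, had 0.645.

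**Figure D2:**
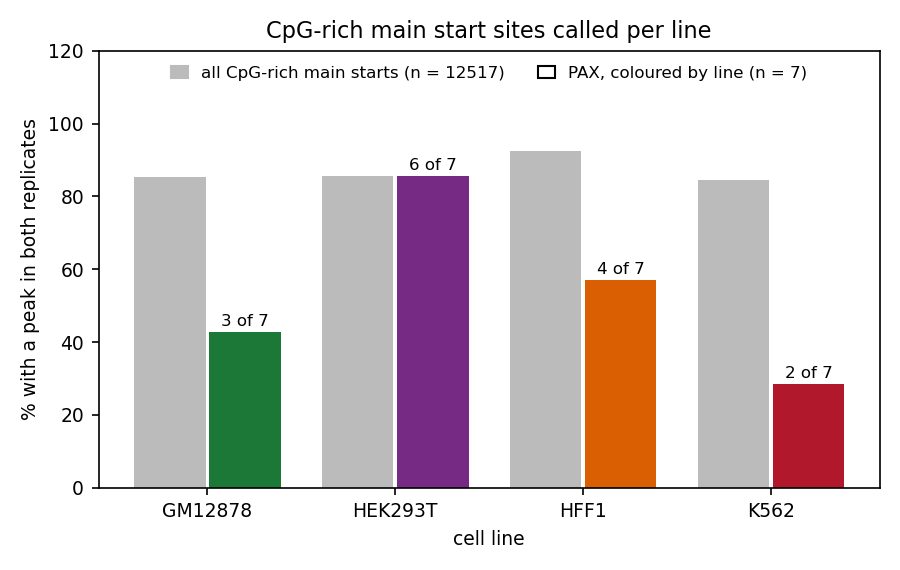
Share of CpG-rich main start sites with a peak in both replicates, per cell line, over all genes (grey, n = 12517) and over the PAX genes (coloured by line, n = 7). The PAX bar equals the grey bar in HEK293T, where 6 of 7 were called, and stands below it in the other 3 lines.

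PAX1 and PAX9, which pattern the sclerotome and the pharyngeal pouches, differed in how many lines opened their starts. At the PAX1 start (chr20:21705664, plus strand) the fold was 10.6 and 12.2 in the HEK293T libraries, from 27 and 28 reads at the summit. The heights of 58.1 and 60.1 lie above the HEK293T median, and the deeper libraries of the other lines had no peak there. At the PAX9 start (chr14:36661860, plus strand), all 8 libraries had a peak. Its height was 118 and 131 in HEK293T, 37.1 and 44.2 in K562, 17.3 and 17.5 in HFF1, and 9.93 and 9.23 in GM12878. The lines did not overlap in height at PAX9, and GM12878 alone lay below its library median. With every list scaled to the HEK293T depth, the PAX9 start was no longer called in GM12878, and with the 50000 best peaks of each list it was lost in GM12878 and HFF1.

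PAX2, PAX5 and PAX8 belong to one branch of the family, and their start sites opened in different lines. PAX2, a regulator of nephron and optic nerve development, has its main start at chr10:100745582 on the plus strand. Both HEK293T libraries held 2 peaks there, and no other library had one. The best peak was not the same in the replicates. In replicate 1 it was chr10:100745300-100745724, with a fold of 7.66 from 27 reads. In replicate 2 it was chr10:100744996-100745202, with a fold of 7.01 from 28 reads. The other 2 PAX2 start clusters had no peak in any library, although both were CpG-rich, with ratios of 0.789 and 0.71.

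PAX5, the B-cell commitment factor, has 4 start-site clusters in a gene of 201000 bp (chr9:36833269-37034268, minus strand). At the main start, the fold was 3.62 and 3.27 in GM12878 and 3.81 and 3.73 in HFF1. The same peaks rested on 85 and 82 reads in GM12878 and on 34 and 28 in HFF1, with heights of 49.6 and 47.3 against 14 and 13.6. The similar folds thus belong to summits of unlike height, because the local background at the GM12878 peaks was 22.7 and 24.4 reads, against 8.19 and 6.78 in HFF1. In GM12878 replicate 1 the best summit lay 555 bp from the nearest start, against 88 to 168 bp in the other 3 libraries, and another peak of that library overlapped theirs. HEK293T and K562 had no peak within 1 kb. Scaled to the HEK293T depth, the main start was called in GM12878 alone, and with the 50000 best peaks of each list in no line.

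A region beside the second PAX5 start cluster had a peak in every line. The region chr9:37027495-37028058, in an intron 6448 bp into the gene from the main start, had a peak in all 8 libraries. Its height was 90.0 and 85.4 in GM12878, 66.7 and 96.6 in HEK293T, 38.9 and 43.2 in K562, and 24.7 and 22.3 in HFF1. Over the median height of its own library, the height was 4.4 and 4.23 in GM12878, 1.94 and 2.81 in HEK293T, 2.86 and 2.83 in K562, and 1.82 and 1.53 in HFF1, so GM12878 lay above the other lines on this scale. The deposited fold gave another order, with 14.1 and 14.8 in K562, 12.4 and 16.2 in HEK293T, 6.88 and 6.55 in GM12878, and 7.66 and 6.44 in HFF1. The summits lay 1131 to 1279 bp from the nearest start, outside the 1 kb window, and the peaks reached into it by 3 to 81 bp in 7 libraries and by 0 bp in HFF1 replicate 2. The call of this start in GM12878, HEK293T and K562 therefore rests on the edges of the peaks, and it was lost with a window of 500 bp or when the summit had to lie inside. The third PAX5 cluster had a peak in HFF1 replicate 2 alone, of 16 reads, and the last had none.

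PAX8 is a thyroid and kidney regulator on the minus strand of chromosome 2 (chr2:113215997-113278921). Its main start had no peak in any library, and its 3 internal start clusters had peaks in GM12878, HFF1 or K562. Starts of other genes were looked for among protein-coding genes only. Whether these peaks also lie at starts of non-coding genes was not examined, so they are not assigned to PAX8 alone. The second cluster had a fold of 7.88 and 7.91 in HFF1 and 6.04 and 6.32 in K562. The third cluster had a fold of 13.0 and 12.1 in GM12878, 9.84 and 9.85 in K562, and 5.0 and 3.69 in HFF1. The fourth cluster was called in K562 alone, with a fold of 5.5 and 5.63 from 28 and 25 reads. Its heights were 0.935 and 0.833 of the library median. HEK293T had no peak within 1 kb of any PAX8 start cluster. An intronic region beside the third cluster, chr2:113234218-113234453, was called in all 4 lines, with heights of 17.2 and 30 in HEK293T, 19.3 and 19 in GM12878, 15.9 and 19.3 in K562, and 9.86 and 12.1 in HFF1. The HFF1 call at the third cluster was lost when lists were scaled to the HEK293T depth, and the K562 call at the fourth was kept.

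PAX3 and PAX7 mark neural crest and muscle precursors. The PAX3 main start (chr2:222298998, minus strand) had a fold of 9.9 and 9.87 in HEK293T and 7.85 and 8.49 in HFF1, with heights of 73.1 and 70.8 against 28.8 and 32.5. Over the library median these were 2.12 and 2.06 in HEK293T and 2.12 and 2.23 in HFF1, so the lines overlapped on that scale. GM12878 and K562 had no peak. An internal PAX3 start within an intron was called in GM12878 alone, with a fold of 6.57 and 6.95 from 17 and 18 reads. Its heights were only 0.486 and 0.515 of the library median, and the call was lost with the 50000 best peaks of each list. The PAX7 start (chr1:18630846, plus strand) was called in HEK293T alone, from 11 and 8 reads. Its heights of 23.7 and 17.2 lay below the HEK293T median, and it was the weakest of the PAX main starts called in that line. Its call was lost when −log10 q of at least 5 was required. The peaks were chr1:18631106-18631343 in replicate 1 and chr1:18631328-18631477 in replicate 2, which overlapped only at their ends. Their summits lay 357 and 552 bp downstream of the start, so the replicates did not share a summit.

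PAX4 and PAX6 act in the endocrine pancreas, and PAX6 also directs eye development. PAX4 (chr7:127610292-127618142, minus strand) had 1 start peak in the whole data set, of 20 reads in HFF1 replicate 1. The PAX6 main start (chr11:31811322, minus strand) lies in a cluster that was open in all 8 libraries, at more than 1 place. The region chr11:31811017-31811598, which covers the main start, had heights of 127 and 135 in HEK293T, 34.9 and 36.1 in K562, and 22.8 and 14.4 in GM12878, and had no peak in HFF1. In HFF1 the best peak of the cluster lay at chr11:31810067-31810674, with heights of 22.2 and 22.3, where K562 had 17.2 and 17.3. A gene on the other strand, annotated without a symbol (ENSG00000285283), has start sites within 1 kb of the main start region and of the upstream region described next, so peaks there cannot be assigned to one gene. HFF1 counts as open at PAX6 only through the neighbouring region. The PAX6 start farthest upstream was called in K562 alone, with a fold of 3.41 and 4.06 from 28 reads in each library. The heights were 0.935 and 0.931 of the library median. The summit of K562 replicate 1 lay 1035 bp from the start, outside the window, and the call was lost when the summit had to lie inside, with a window of 500 bp, or under scaling to the HEK293T depth. With the 50000 best peaks of each list, the main cluster was lost in GM12878 and HFF1.

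The gene bodies held most peaks in GM12878, an order that turned when lists of equal length were compared. Inside the 9 gene bodies and outside the start windows, there were 31.5 ± 2.12 peaks in GM12878 (SD, n = 2), 26.5 ± 3.54 in HFF1, 15.5 ± 2.12 in K562 and 11.5 ± 0.707 in HEK293T. Per 10000 peaks of the library these were 3.07 ± 0.249, 2.15 ± 0.371, 2.06 ± 0.14 and 2.2 ± 0.144, so HFF1, K562 and HEK293T differed by less than their replicate spread and GM12878 lay above them. PAX5 alone held 20 and 17 of the GM12878 body peaks. Scaled to the HEK293T depth, the body counts were 20.5 in GM12878, 13 in HFF1 and 7 in K562. With the 50000 best peaks of each list they were 10.5 in HEK293T, 8.5 in K562, 7.5 in GM12878 and 6.5 in HFF1, so that HEK293T was then highest. Within 100 kb outside the genes, there were 79 ± 4.24 peaks in GM12878, 77.5 ± 0.707 in HFF1, 58.5 ± 6.36 in K562 and 54 ± 1.41 in HEK293T. Per 10000 library peaks the flanks gave 7.69 ± 0.307, 6.26 ± 0.194, 7.8 ± 0.308 and 10.3 ± 0.228, highest in HEK293T. A two-sided permutation of 2 libraries against 2 cannot pass a threshold of 0.05, so no test was made between single lines.

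Merging the peaks of the 8 libraries gave 253 regions at the PAX loci, of which 182 were called in at least 1 line and 26 in all 4. Regions called in 1 line with no peak elsewhere numbered 35 in GM12878, 31 in HFF1, 12 in K562 and 8 in HEK293T. As shares of the PAX regions called in each line these were 34.3%, 35.2%, 16.7% and 13.6%, against 40.6%, 50.5%, 25.4% and 10.8% over all 243200 regions of the genome. The PAX share was thus lower than that of the genome in GM12878, HFF1 and K562, and higher in HEK293T. The PAX regions called numbered 102 in GM12878, 88 in HFF1, 72 in K562 and 59 in HEK293T. The differences from the genome were not tested, so no trait of the family is read from them. Of the 8 HEK293T regions, 4 lay at start sites, 2 of them at the PAX2 main start. None of the 31 HFF1 regions did, and 23 of them lay outside the genes. The genome-wide share of single-line regions at start sites is not given here, so no contrast between the lines is drawn from these counts.

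**Figure D3:**
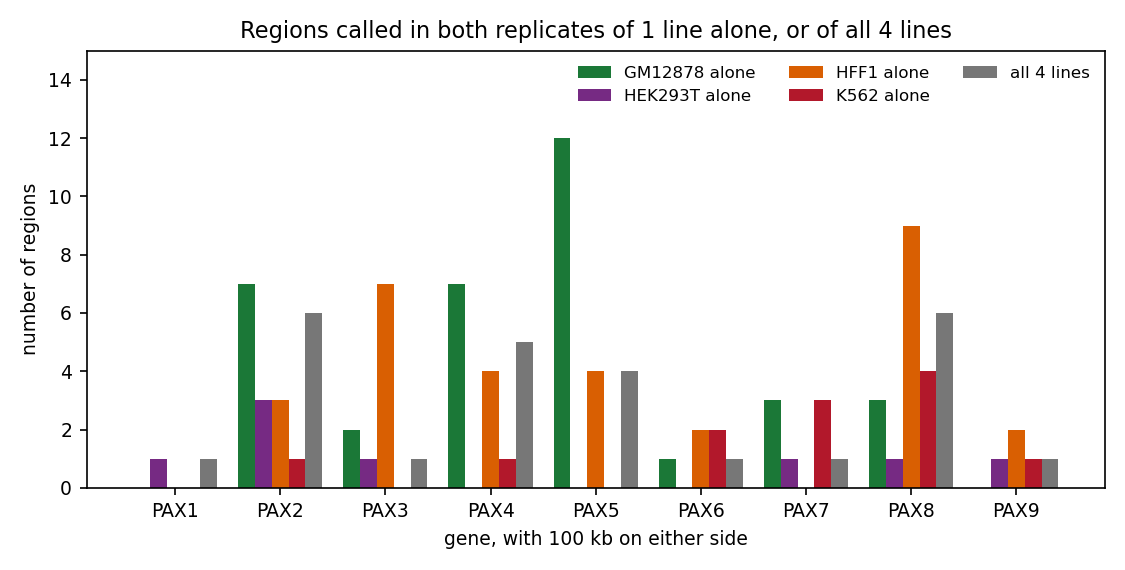
Number of merged peak regions at each PAX gene, with 100 kb on either side, that were called in both replicates of 1 line alone (coloured) or of all 4 lines (grey). GM12878 reaches 12 regions at PAX5 and HFF1 reaches 9 at PAX8.

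At PAX5, 12 of the 30 regions called in GM12878 were found in that line alone (40%), close to its share of 40.6% over the genome. HFF1 had 4 of 18 (22.2%), against 50.5% over the genome. HEK293T had 0 of 5, against 10.8%, and K562 had 0 of 12, against 25.4%. Of the GM12878 regions, 9 lay inside the gene, all in introns. The best-ranked one, chr9:36993875-36994575, lies 40113 bp downstream of the main start and had a fold of 5.7 and 6.23, with heights of 48.5 and 55.4. Regions 3811 bp, 3515 bp and 1376 bp downstream of the main start had folds between 2.13 and 3.21, yet their heights lay between 34.5 and 50.2, above the GM12878 median. An intronic region 37982 bp downstream was instead called in all 4 lines, with heights of 55.5 and 56.0 in GM12878 and between 11.2 and 25.8 in the other 6 libraries.

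**Figure D4:**
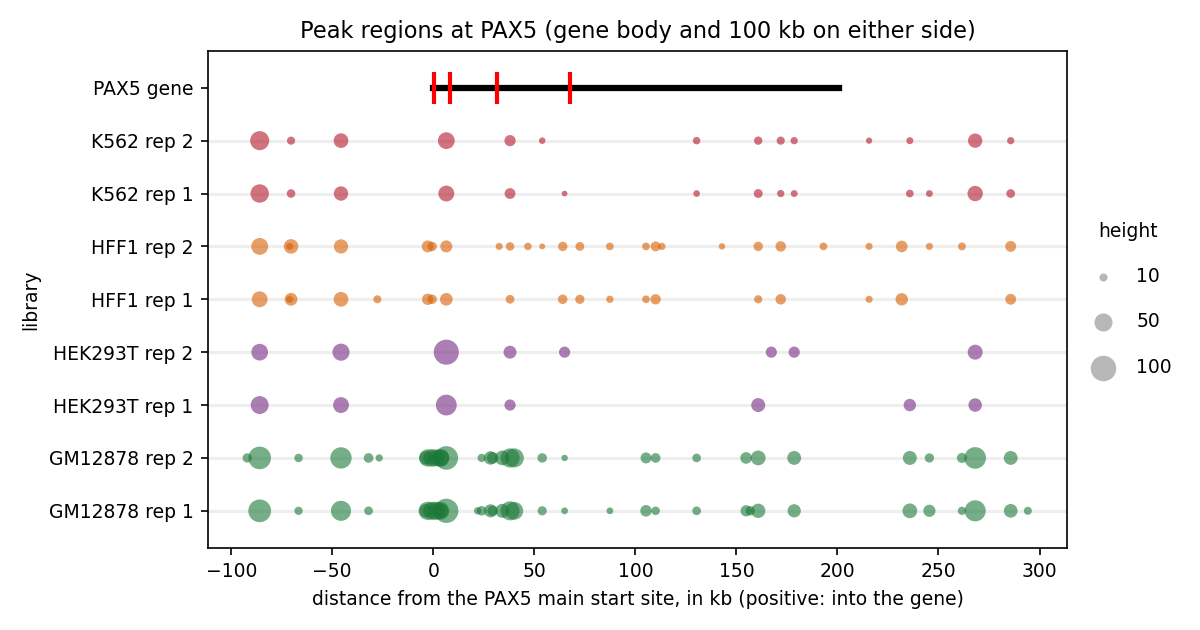
Peaks at PAX5 by distance of the summit from the main start site (kb, positive into the gene) in each library, with point size showing height and red ticks the start-site clusters. GM12878 shows a group of tall peaks from the main start to 40113 bp downstream, where the other lines show few.

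Regions of a single line at the other genes lay mostly at a distance from the start. PAX8 had 9 such regions of 24 called in HFF1 (37.5%), against 50.5% over the genome, and the best-ranked, chr2:113336052-113336446, lies 57310 bp upstream of the main start with a fold of 15.4 and 13.7. PAX3 had 7 of 10 in HFF1 (70%), led by chr2:222355848-222356421, 56998 bp upstream, with a fold of 13.0 and 11.8. Introns of PAX3 held 3 of them, including chr2:222290703-222291643 with a fold of 9.59 and 9.03.

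PAX4 had 7 of 16 GM12878 regions in that line alone (43.8%), and PAX2 had 7 of 17 (41.2%), both near the genome share of 40.6%. The best-ranked at PAX4, chr7:127635640-127636225, lies 17939 bp upstream with a fold of 12.9 and 14.4. PAX4 is a short gene among several others, and all of its called regions lay outside it. The starts of its neighbours ARF5, GCC1 and SND1 were called in all 4 lines, and FSCN3 in GM12878 and K562. For all neighbours, only starts within 100 kb of the PAX gene were counted. Among neighbours of other members, SLF2 (PAX2), ZCCHC7 (PAX5) and PSD4 (PAX8) were called in all 4 lines. ENSG00000288658 (PAX3) was called in all but K562, and IL1RN (PAX8) in HFF1 and K562. ELP4 (PAX6) and SLC25A21 (PAX9) were called in no line at starts within that distance. Any starts of these genes farther away were not counted. The best-ranked PAX2 region of a single line, chr10:100890412-100891476, was open in HFF1 alone, 145255 bp downstream, with a fold of 12.6 and 12.7.

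In K562, the best-ranked specific region at PAX6, chr11:31782324-31782543, lies 28870 bp downstream of the main start with a fold of 7.48 and 7.75. PAX7 had chr1:18807228-18807833 in K562 alone, with a fold of 9.72 and 10.2. The best HEK293T region at PAX9, chr14:36582061-36582760, lies 79424 bp upstream and had a fold of 12.6 and 9.93. It lies at the start of the neighbouring homeobox gene NKX2-8. That start was also called in HFF1, where a separate region, chr14:36581041-36581833, lies beside it. PAX1 had no region of a single line apart from its HEK293T start.

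A selection of summit windows of distal regions is shown next, to compare a region open everywhere with regions of a single line. The best-ranked distal single-line windows at PAX3 and PAX8 (HFF1), PAX4 (GM12878), PAX7 (K562) and PAX9 (HEK293T) are not shown. They matched none of the motifs searched other than the E-box. Among the best-ranked regions called in all 4 lines, only that of PAX1 matched the CTCF core. Capitals mark matches on either strand to the CTCF core consensus at PAX1, to the AP-1 consensus TGANTCA at PAX2 and to the GATA consensus AGATAA at PAX6. The PAX5 window matched 1 of the 9 motifs searched, the short E-box CANNTG, which is not capitalised and occurred in 48.3% of all GM12878-specific regions.
PAX1 upstream region, all 4 lines, outside the gene, chr20:21615685-21615785, plus strand: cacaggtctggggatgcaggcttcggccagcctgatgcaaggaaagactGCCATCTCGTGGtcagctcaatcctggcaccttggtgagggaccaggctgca
PAX2 downstream region, HFF1 alone, outside the gene, chr10:100890787-100890887, plus strand: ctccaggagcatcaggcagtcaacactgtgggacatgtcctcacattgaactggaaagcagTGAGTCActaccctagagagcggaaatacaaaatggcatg
PAX6 downstream region, K562 alone, outside the gene, chr11:31782402-31782502, minus strand: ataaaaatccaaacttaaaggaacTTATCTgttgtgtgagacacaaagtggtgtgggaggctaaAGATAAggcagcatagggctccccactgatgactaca
PAX5 intronic region, GM12878 alone, chr9:36994105-36994205, minus strand: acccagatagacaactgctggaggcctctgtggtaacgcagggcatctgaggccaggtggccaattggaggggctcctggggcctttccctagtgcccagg
CTCF is the architectural factor of chromatin loops, AP-1 is abundant in fibroblasts, and GATA factors direct erythroid genes. The CTCF core occurred in 4 of 26 PAX regions called in all lines (15.4%), against 14.7% of 20741 such regions. AP-1 matched 5 of 31 HFF1-specific PAX regions (16.1%), against 24.8%, and 5 of 12 K562-specific ones (41.7%), against 11%. GATA matched 3 of 12 K562-specific regions (25.0%), against 21.3%. In GM12878-specific regions, the RUNX consensus TGTGGTT matched 4 of 35 (11.4%), against 7.56%, and the PU.1 consensus GAGGAAGT matched 1 of 35, against 4.66%. The counts are small, and a match is a description of these letters, searched on both strands.

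The share of open chromatin at each gene was compared over the 4 lines in 1 test. The share is the number of base pairs under peaks in the gene and 100 kb on either side, per Mb of peaks in the library. The test was an exact one-sided permutation of the variance between lines over all ways to split 8 libraries into 4 pairs, adjusted by Benjamini-Hochberg over 19867 genes. It called 7 of 9 PAX genes, against 78.2% of all genes tested. The median share of variance between lines was 0.963 for the PAX genes and 0.968 for all genes, so the family did not stand apart from the background.

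HEK293T had the highest mean share at 6 of 9 genes, PAX1, PAX2, PAX3, PAX4, PAX6 and PAX9, all of which passed the test. Over all genes, 18.6% passed with HEK293T highest. PAX1 had 134 and 111 bp per Mb in HEK293T, 57.5 and 50.7 in K562, 14.8 and 16.7 in GM12878, and 4.62 and 12 in HFF1 (adjusted p = 0.0223, the smallest that the exact permutation test can give). PAX9 had 131 and 129 in HEK293T, 65.9 and 53.3 in K562, 36.9 and 39.4 in HFF1, and 15.1 and 20.4 in GM12878. At both genes the lines stood in the order HEK293T, K562 and then the others, without overlap between HEK293T and any other line. PAX2 had 274 and 273 in HEK293T, 165 and 179 in GM12878, 124 and 122 in K562, and 108 and 107 in HFF1. PAX3 had 108 and 128 in HEK293T, 98.9 and 100 in HFF1, 51.6 and 70.1 in GM12878, and 15.6 and 19.6 in K562. HEK293T and HFF1, which opened the PAX3 main start, also had the highest shares there, but the share includes the peaks at that start. The calls of PAX1, PAX2, PAX3 and PAX9 held in 14 of 15 alternatives each, all but the replicate block.

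The calls of PAX4, PAX6 and PAX7 depended more on single libraries and settings. PAX6 had 89.4 and 104 in HEK293T, 86.3 and 74.8 in K562, 42.5 and 33.7 in HFF1, and 26.1 and 34.0 in GM12878 (adjusted p = 0.0322, exact permutation). PAX7 was highest in K562, at 117 and 88.5, against 53.2 and 61.4 in GM12878, 53.5 and 37.8 in HEK293T, and 24.2 and 19.2 in HFF1 (adjusted p = 0.0322, exact permutation). Over all genes, 33.4% passed with K562 highest. The line highest over the PAX7 locus was therefore not HEK293T, the only line with a peak at the PAX7 start. PAX4 had 170 and 218 in HEK293T, 162 and 162 in GM12878, 149 and 160 in K562, and 120 and 107 in HFF1 (adjusted p = 0.0223, exact permutation). Its call was lost in 9 of 15 alternatives, among them each omission of a GM12878, HFF1 or K562 library (adjusted p = 0.053 to 0.138, exact permutation) and scaling to the HEK293T depth (0.0784). The PAX7 call was lost without either GM12878 library (0.0569 and 0.0568) or HFF1 replicate 2 (0.0749), and the PAX6 call without K562 replicate 2 (0.063). Flanks of 50 kb also ended the PAX7 call (0.21), and counting peaks in place of base pairs ended those of PAX6 (0.173) and PAX7 (0.0527).

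PAX5 and PAX8 did not pass. PAX5 had 308 and 277 in GM12878, against 173 and 204 in K562, 148 and 188 in HFF1, and 158 and 151 in HEK293T (adjusted p = 0.0766, exact permutation). GM12878 lay above all other libraries and the other 3 lines overlapped. A gene high in 1 line alone can have a p near 0.143 in this design, since 15 of the splits keep the libraries of that line together, so the test has little power for this pattern. The limma moderated F test on the same shares gave PAX5 an adjusted p of 0.0026, and the exact test passed it with lists scaled to the HEK293T depth (0.0399) or the 50000 best peaks (0.0434). PAX8 had 209 and 222 in HFF1, 195 and 181 in HEK293T, 176 and 176 in K562, and 152 and 184 in GM12878 (adjusted p = 0.0857, exact permutation), and passed without GM12878 replicate 2 (0.0313), scaled to the HEK293T depth (0.0337), with the 50000 best peaks (0.0376) and with flanks of 50 kb (0.0357).

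**Figure D5:**
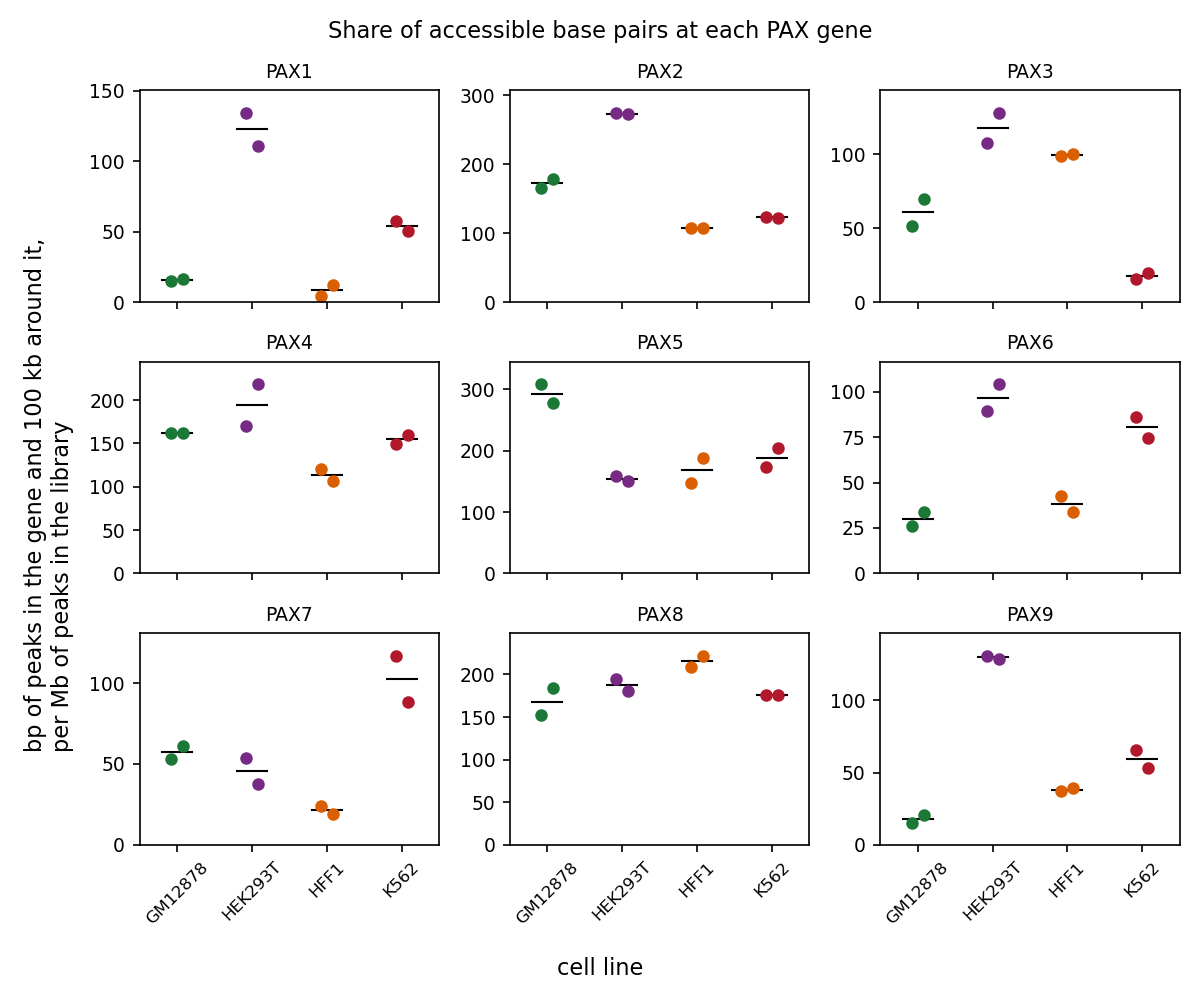
Base pairs under peaks in each PAX gene and 100 kb around it, per Mb of peaks in the library, with a point for each of the 2 libraries of a line and a bar at their mean. HEK293T is highest for PAX1, PAX2, PAX3, PAX4, PAX6 and PAX9, GM12878 for PAX5, K562 for PAX7 and HFF1 for PAX8.

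The count of genes highest in HEK293T stayed at 6 with lists scaled to the HEK293T depth or limited to the 50000 best peaks, of which 5 passed the test. It was 5 when peaks were counted in place of base pairs, or with flanks of 50 kb, where PAX6 was highest in K562. The PAX5 locus reached percentile 87.2 of all genes in GM12878, and PAX2 percentile 86.7 in HEK293T, without correction for gene length. PAX1 and PAX9 lay at percentiles 4.16 and 4.61 in GM12878 and at 34.1 and 37.6 in HEK293T. Even in HEK293T, then, the PAX1 and PAX9 loci had less open chromatin than most genes.

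Genes with a pattern most like each member were found by Pearson r over the 8 libraries, which share line and depth. Only genes that passed the test of shares, with windows not overlapping that of the member, were searched. PAX5 and PAX8 did not pass it, so genes shaped like them may have been left out beforehand. PAX9 was closest to SPRY3 (r = 0.9983), GJE1 and OAT. PAX1 was closest to ALG13 (0.9975), CAMLG and FOXD3. PAX2 was closest to TBC1D4 (0.9973), SMARCA5 and HS6ST3. PAX3 was closest to SLC47A2 (0.9942), ALDH3A1 and EYA1. PAX5 was closest to MAP2K5 (0.9832), CXCL17 and PHC3, none of which is on the B-cell list. PAX7 was closest to MAT1A (0.9875), SESN2 and PRRG2. PAX8 had no gene above 0.95 among those searched and was closest to CUBN (0.9356), followed by ERG and DENND2B. PAX6 was closest to ENSG00000285629 (0.9925), ADRA2C and CHD5, and PAX4 to ENSG00000288654 (0.9835), LCE3A and ZGRF1. Such likeness is common at this number of libraries: 403 genes passed 0.95 for PAX1 and 338 for PAX9.

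Genes known to work beside PAX factors were examined by the same start-site call, in lists of 10. The B-cell list of PAX5 partners and targets had 10 called in GM12878, 8 in K562, 7 in HEK293T and 7 in HFF1, with 6 called in all 4 lines. CD79A, a B-cell receptor subunit, was called in GM12878 alone, with a fold of 5.28 and 5.92. The kidney and ear list for PAX2 and PAX8 had 9 called in HEK293T, 8 in HFF1, 6 in GM12878 and 5 in K562. LHX1, a regulator of early kidney formation, was called in HEK293T alone, with a fold of 5.05 and 6.24. Both CD79A and LHX1 are also on the marker lists. The eye and endocrine pancreas list for PAX6 and PAX4 had 6 called in HEK293T, 4 in HFF1, 4 in K562 and 2 in GM12878. On that list, NEUROD1, a neuroendocrine differentiation factor, was called in HEK293T alone (fold 5.24 and 5.13) and SIX3, an eye and forebrain regulator, in GM12878 alone (3.54 and 3.83). The muscle and neural crest list had 7 in HEK293T, 6 in HFF1, 5 in GM12878 and 5 in K562, and the sclerotome, pharyngeal arch and thyroid list had 7 in HEK293T, 7 in HFF1, 4 in GM12878 and 4 in K562. Over all genes the called shares were 71.8% in GM12878, 67.7% in HEK293T, 76.1% in HFF1 and 70.3% in K562. In HEK293T, 4 of the 5 lists lay within 1 gene of its share, and 9 of 10 on the kidney and ear list lay above it.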

How the data were processed

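ATAC-seq peak lists of 8 human libraries were analysed, 2 each from GM12878, HEK293T, HFF1 and K562. The submitters' processing notes name cutadapt 3.2, Bowtie2 2.4.2, Picard, MACS2 2.2.7.1 and the builds hg38 and mm10. Parameters and the role of each tool are not given in the sources used here. The deposited lists give each peak a score, a fold (summit over surrounding background, a ratio) and −log10 p and q values, all made by the authors for each library separately. No peak passed the end of a GRCh38 chromosome (0 in each library).

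Pileup and local background were solved from the deposited fold and −log10 p. The commonest background of a library was taken as its background level, a measure of depth. The lists hold no read totals, so no counting interval was computed. Gene models were GENCODE release 44. Regions were merged peaks, with an overlap of at least 1 bp. Sequences were read from GRCh38.

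Shares of peak base pairs were tested by exact permutation over all splits into 4 pairs with Benjamini-Hochberg adjustment at 0.05 (Python 3.11.15, NumPy 2.4.6, SciPy 1.17.1), after the procedure was tested on simulated data. The limma 3.58.1 moderated F test with a pseudocount of 1 bp per Mb was an alternative. Other alternatives were start windows of 500 bp and 2 kb, starts joined within 500 bp, protein-coding transcripts alone, summits inside the window, flanks of 50 kb, −log10 q of at least 5, the 50000 best peaks, scaling to the HEK293T background level, counts of peaks, omission of each library and a replicate block. The labels do not state separate cultures, so p-values measure only the spread between these libraries, which may be technical.

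Genes were named by rule: all PAX genes, start clusters with a peak, the best-ranked line-specific and widely called regions, the 3 most similar genes, neighbours, and listed genes called in 1 line. Not all regions under the rule are printed. The sequence windows at the PAX5 main start and the PAX6 upstream start, and some regions of PAX3, PAX5, PAX6 and PAX8, were chosen after their values were seen. The members and lists were chosen with earlier results of these data known.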

Additional observations from a re-analysis of the deposited data

How the results depend on the processing

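With a start window of 500 bp, 4 PAX start clusters were called in K562. With flanks of 50 kb, the mean number of peaks outside the genes was 42 in GM12878, 29 in HEK293T, 41.5 in HFF1 and 28 in K562. With the 50000 best peaks per library, 2 start clusters were called in GM12878 and 2 in HFF1, the gene bodies held 7.5 peaks in GM12878, 6.5 in HFF1, 8.5 in K562 and 10.5 in HEK293T, and the flanks held 38.5 in GM12878 and 30 in HFF1. Scaling to the HEK293T background level was chosen after the data were seen. It gave 20.5 body peaks in GM12878, 13 in HFF1 and 7 in K562, and 44 flank peaks in HFF1 and 37.5 in K562. After scaling, the body count of GM12878 stayed above the 11.5 of HEK293T, that of HFF1 lay close to it and that of K562 below it. Over all genes, the exact test called 15543 genes with base pairs, 8024 with numbers of peaks, and 11992 to 15154 when 1 library was left out, while limma called 18773.

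With the replicate number as a block, 0 genes passed, since the smallest possible p was 0.0417 and the smallest adjusted p 0.0766, with 10809 genes at an unadjusted p under 0.05. The labels do not say whether the numbers pair the libraries. The correlation of deviations between same-numbered libraries lay between -0.0416 and 0.0254 over 19867 genes. A replicate effect shared at some loci only was not tested. Depth limits what an absent peak means, most of all in HEK293T, where a median peak rests on 16 reads.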
